A study of Mus musculus with 12 samples.

Results

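Axon guidance ligands and receptors were followed through 12 lists of accessible chromatin regions (peaks) from sorted mouse medulloblastoma cells. The set was chosen by gene symbol from the mm10 protein-coding genes. It held the semaphorins, plexins and neuropilins, the Eph receptors and ephrins, the Slits and Robos, the netrins and netrin-Gs, and the netrin receptors Dcc, Neo1 and Unc5. This gave 71 of 21631 genes in 11 families. A peak was given to the nearest protein-coding gene when its midpoint lay inside the gene or within 100 kb of it, and peaks sharing at least 1 bp across the lists were joined into common regions. The 71 genes held 436 of the 44242 regions.

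Guidance ligands are secreted or membrane-bound proteins that attract or repel growing axons and migrating cells, and their receptors steer the cytoskeleton of the growth cone. Netrins act through Dcc, neogenin and Unc5 receptors, Slits through Robos, semaphorins through plexins and neuropilins, and ephrins through Eph receptors, with signals running both ways in the last pair. In the developing cerebellum several of them guide the migration of granule cell precursors, the lineage from which SHH medulloblastoma arises.

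The cells came from endpoint tumours of untreated Ptch1+/- mice, which carry 1 working copy of the hedgehog receptor Ptch1, so all 4 groups share this genotype. One sort used an eGFP reporter of Sox2 to separate SOX2+ cells (4 libraries) from SOX2- cells (4 libraries). Another used RFP to split SOX2+ cells into SOX2+/MKI67+ cells, which are cycling (2 libraries), and the SOX2+/MKI67- remainder (2 libraries). Chromatin was profiled by ATAC-seq, in which a transposase cuts open DNA and tags it for sequencing. Neither the age of the mice nor whether replicates are separate animals is given in the sources used here, so p-values measure only the spread between these libraries, which may be technical.

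The lists held 9377 to 25272 peaks in SOX2+, 7009 to 26206 in SOX2-, 18738 and 24694 in SOX2+/MKI67+, and 19229 and 17615 in SOX2+/MKI67- libraries. Read counts are not used here and the depth is unknown, so list length stood in for it. SOX2+ replicate 2 and SOX2- replicates 1 and 3 were the shortest lists, and SOX2- replicate 2 was the longest. The 7 stem-like markers used to check the labels (Sox2 and Olig2 among them) held 7.12 to 11.7 peaks per 10000 in SOX2+ and 2.85 to 4.96 in SOX2- libraries, with no overlap. The 7 granule neuron progenitor markers, Atoh1 among them, held 0 to 6.11 in SOX2+ and 5.71 to 10.3 in SOX2- libraries. Of 8 microglia and leukocyte markers, 7 had no peak in any library of any group. The 10 endothelial markers held 2.13 to 4.58 peaks per 10000 in SOX2+ and 0 to 6.0 in SOX2- libraries. The 6 fibroblast and mural markers held 1.53 to 3.20 in SOX2+ and 0 to 1.91 in SOX2- libraries. In the MKI67 sort they held 0.534 to 4.05 in SOX2+/MKI67+ and 2.60 to 3.41 in SOX2+/MKI67- libraries. The part of both marker lists in the results was not tested.

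Start sites of guidance genes were listed in every library, in none, or in some groups and not in others. A start window, 250 bases before to 50 after a RefSeq start site on GRCm38.p6 (the coordinates of mm10), was available for 61 of the 71 genes. It overlapped a peak in all 12 libraries at 11 of the 61 genes (18%), against 24.8% of 17274 genes, and in none at 13 (21.3%), against 43.2%. The 11 were Neo1, Unc5c, Robo1, Epha5, Epha7, Epha10, Ephb3, Ephb6, Efnb2, Sema3c and Sema6c. At Epha5 the peak was given to Gm42163, a gene that overlaps this start, and so does not count among the Epha5 peaks. Among the 61, Unc5a was the one gene whose window was listed in 3 or more SOX2+ and no SOX2- libraries (0.729% of all genes), and Slit3 the one with the opposite pattern (0.145%). The windows of Epha3 and Efna1 were listed in both SOX2+/MKI67+ and in 0 of 2 SOX2+/MKI67- libraries. The share of all genes with that pattern was not counted. Below are the 250 bases before the start sites of the 2 genes that separated SOX2+ from SOX2- lists, of Epha3, and of Neo1, listed throughout. Capitals mark CG dinucleotides, and each sequence lies wholly inside the merged region at its start.
Unc5a: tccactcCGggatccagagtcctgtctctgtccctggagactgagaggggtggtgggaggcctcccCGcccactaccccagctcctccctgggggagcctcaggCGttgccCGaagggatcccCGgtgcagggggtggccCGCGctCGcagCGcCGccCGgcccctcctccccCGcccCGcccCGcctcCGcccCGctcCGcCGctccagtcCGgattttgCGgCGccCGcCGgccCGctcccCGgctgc
Slit3: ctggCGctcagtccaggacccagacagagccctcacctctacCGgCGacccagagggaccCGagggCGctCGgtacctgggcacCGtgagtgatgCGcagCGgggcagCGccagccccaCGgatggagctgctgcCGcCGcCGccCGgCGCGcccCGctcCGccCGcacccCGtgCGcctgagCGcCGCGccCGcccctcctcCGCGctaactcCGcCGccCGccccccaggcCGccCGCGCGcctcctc
Epha3: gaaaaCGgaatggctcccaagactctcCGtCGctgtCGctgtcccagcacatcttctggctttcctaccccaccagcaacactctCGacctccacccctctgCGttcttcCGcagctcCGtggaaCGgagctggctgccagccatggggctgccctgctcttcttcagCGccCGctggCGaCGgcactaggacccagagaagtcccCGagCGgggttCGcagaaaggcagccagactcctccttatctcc
Neo1: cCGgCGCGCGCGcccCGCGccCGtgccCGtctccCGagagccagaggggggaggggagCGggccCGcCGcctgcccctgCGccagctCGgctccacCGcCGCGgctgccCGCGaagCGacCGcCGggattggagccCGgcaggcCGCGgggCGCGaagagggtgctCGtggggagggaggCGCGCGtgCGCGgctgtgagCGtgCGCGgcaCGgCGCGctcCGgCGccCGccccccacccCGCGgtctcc

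The Unc5a sequence lies at chr13:54949161-54949410 (plus strand), the Slit3 sequence at chr11:35121206-35121455 (plus strand), the Epha3 sequence at chr16:63864176-63864425 (minus strand) and the Neo1 sequence at chr9:59036442-59036691 (minus strand). They held 25, 35, 16 and 45 CG dinucleotides, at GC contents of 76.8%, 78.8%, 62.8% and 83.2%. None of them contained, on either strand, the letters ACAANG (a SOX factor core), CAGCTG (an E-box of the kind bound by ATOH1) or GGTGGTC (a GLI core). These letters occurred in 33.3%, 12.2% and 2.36% of 21045 such sequences, and in 24.7%, 14.3% and 5.19% of the 77 of guidance genes.

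Guidance genes were long, with a median of 60.9 kb against 17.3 kb over all genes, and across the 71 genes the number of regions followed gene length (Spearman rho 0.686, a description, since a longer gene offers more places for a peak). Of their regions, 64.7% lay inside the gene, against 39% of all regions, and 14.7% within 1 kb of a gene end, against 26.8%. Regions listed in all 12 libraries were 3.67% of theirs and 12.2% of all. Robo1 held the most, 28 regions, followed by Slit3 with 24 and Ephb1 with 17. Epha1 and Epha8 had no peak in any list, and Epha2 and Efnb3 had 2 peaks each in SOX2+ replicate 4 and none elsewhere. The other 67 genes had a peak in at least 2 libraries and entered the tests.

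The number of peaks at guidance genes followed list length (Spearman rho 0.970, 12 libraries). Per 10000 peaks of a list, the 71 genes held 64.7 ± 19.2 in SOX2+ and 72.5 ± 20.7 in SOX2- libraries (SD, n = 4 each), with ranges of 37.3 to 78.9 and 49.9 to 92.7 that overlapped. The MKI67 sort gave 82.2 and 83.8 in SOX2+/MKI67+, against 63.6 and 68.1 in SOX2+/MKI67- libraries, with no overlap. Between 28 and 65 of the genes had a peak in a SOX2+ library and 27 to 64 in a SOX2- library.

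**Figure D1:**
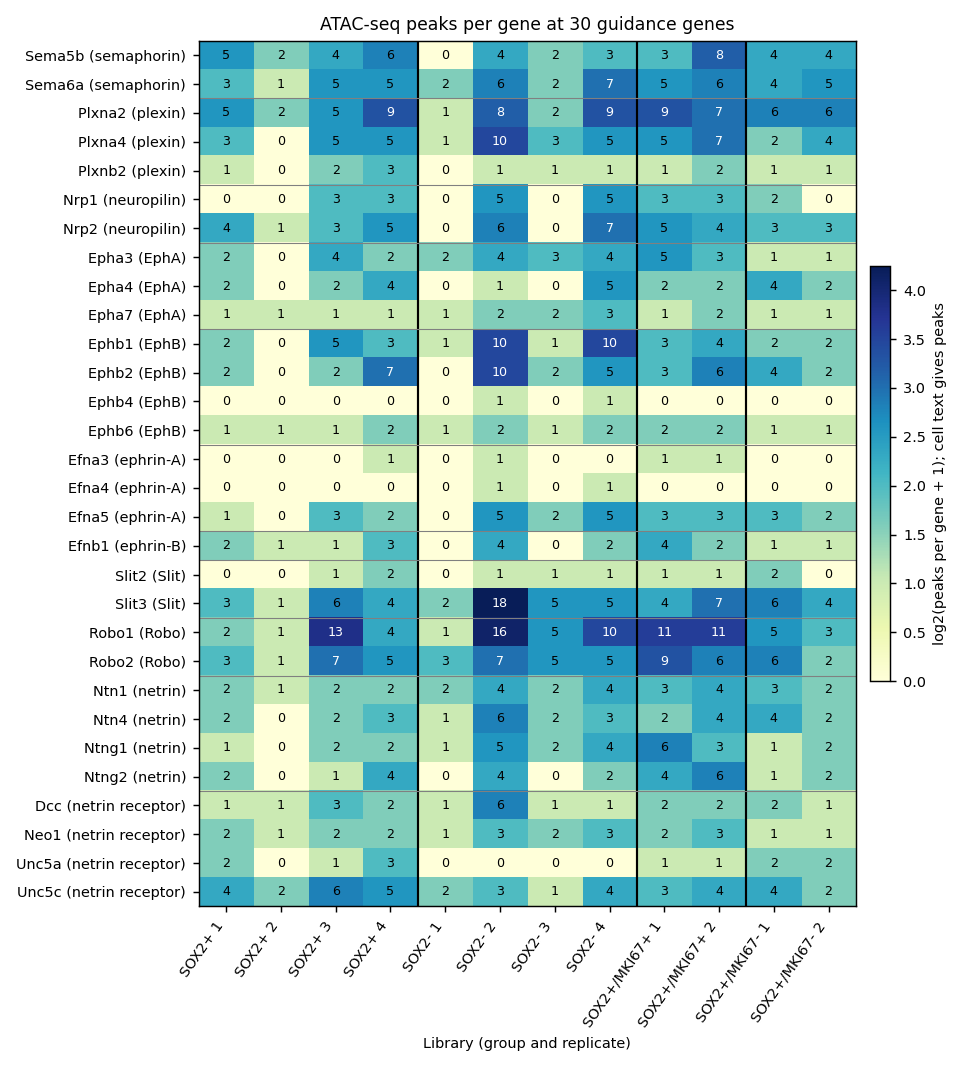
Peaks per gene (number in each cell, colour on a log2 scale of peaks + 1) for 30 guidance genes, by library, with families separated by grey lines and groups by black lines. SOX2+ replicate 2 and SOX2- replicate 1 are pale for most genes, Slit3 reaches 18 and Robo1 16 in SOX2- replicate 2, and Unc5a is at 0 in all 4 SOX2- libraries.

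No guidance gene passed an adjusted p of 0.05 between SOX2+ and SOX2- cells, in limma on log2(peaks per gene + 1) over 14185 genes with list length as a covariate. Over all genes 0.74% were called higher and 0.12% lower in SOX2+. At an unadjusted p under 0.05, 4 of the 67 were higher (5.97%, against 6.85% of all genes) and 11 lower (16.4%, against 6.44%). With no list length covariate 2 were higher (2.99%, against 4.65% of all genes) and 1 lower (1.49%, against 1.57%). The log2 difference was above 0 for 25 genes (37.3%, against 43.2% of all genes) and below 0 for 42 (62.7%, against 44.3%). The shares of all genes include genes at exactly 0 in their base, where no guidance gene lay. The median was -0.15 over the 67 and 0 over all genes. With no list length covariate the split was 28 and 33 of the 67, the rest at exactly 0, and the median 0. This split was not set beside that of all genes in the same fit. Leaving out genes with the same count in all 12 libraries, a choice made after seeing the data, gave 1.45% and 0.402% of 12424 genes called and again 0 guidance genes. With lists cut to equal peak numbers 3 of 39 guidance genes were called, Ephb3 and Sema5b higher and Ntn1 lower, against 1.62% higher and 0.898% lower of all genes. For no guidance gene did the 4 SOX2+ counts lie wholly above or below the 4 SOX2- counts, against 1.08% and 0.12% of all genes.

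Among the ligands, the netrins carried the smallest p. Ntn1 (chr11:68209364-68386826), the founding secreted netrin, had 2, 1, 2 and 2 peaks in SOX2+ libraries, against 2, 4, 2 and 4 in SOX2- libraries, 3 and 4 in SOX2+/MKI67+ and 3 and 2 in SOX2+/MKI67- libraries. Its counts overlapped at 2, and only SOX2- replicates 2 and 4, the longest lists of their group, exceeded it. The log2 difference of SOX2+ over SOX2- was -0.59 ± 0.12 (SE; limma adjusted p = 0.0787), which misses the threshold. Ntng1, a membrane-anchored netrin-G, had 1, 0, 2 and 2 against 1, 5, 2 and 4 peaks (-0.97 ± 0.28, limma adjusted p = 0.187). Ntn4, a netrin of basement membranes, had 2, 0, 2 and 3 against 1, 6, 2 and 3 peaks (-0.72 ± 0.23, limma adjusted p = 0.223). In both genes the higher SOX2- counts came from the longer lists. Ntng2, the other netrin-G, overlapped throughout with 2, 0, 1 and 4 against 0, 4, 0 and 2 peaks.

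Slit3 (chr11:35121456-35708507), a secreted repellent read by Robos, had 3, 1, 6 and 4 peaks in SOX2+ libraries, against 2, 18, 5 and 5 in SOX2- libraries (log2 difference -0.90 ± 0.32, limma adjusted p = 0.268). The difference was -0.15 with lists of equal peak numbers, -0.26 with the upper 50% of each list and -1.21 to -0.59 without single libraries. The 18 peaks of SOX2- replicate 2 stood apart from the other 11 libraries, which held 1 to 7. Slit2, another Slit, had 0, 0, 1 and 2 against 0, 1, 1 and 1 peaks, so the groups overlapped. Of the semaphorins, 9 of 20 had a log2 difference above 0, against 43.2% of all genes. Sema5b, a transmembrane semaphorin with thrombospondin repeats, had 5, 2, 4 and 6 peaks in SOX2+ libraries, against 0, 4, 2 and 3 in SOX2- libraries (0.68 ± 0.22, limma adjusted p = 0.224). Sema6a, a plexin ligand known from granule cell migration, had 3, 1, 5 and 5 against 2, 6, 2 and 7 peaks. Of the ephrins, Efna5, a GPI-anchored ligand of EphA receptors, had 1, 0, 3 and 2 peaks in SOX2+ libraries, against 0, 5, 2 and 5 in SOX2- libraries (-0.75 ± 0.23, limma adjusted p = 0.217). Efna4 had 0 in all SOX2+ libraries and 1 peak each in SOX2- replicates 2 and 4, a difference of 1 peak in 2 libraries (-0.56 ± 0.18, limma adjusted p = 0.224). Efnb1, a transmembrane ephrin, had 2, 1, 1 and 3 against 0, 4, 0 and 2 peaks.

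Among the receptors, Unc5a (chr13:54945151-55006018), a netrin receptor of the repulsive Unc5 family, had the largest positive difference. It had 2, 0, 1 and 3 peaks in SOX2+ libraries and 0 in each of the 4 SOX2- libraries, while SOX2+/MKI67+ libraries had 1 and 1 and SOX2+/MKI67- libraries 2 and 2. Of the 8 libraries that hold SOX2+ cells, only SOX2+ replicate 2, the shortest list among them, had none. The log2 difference was 1.08 ± 0.33 (SE; limma adjusted p = 0.223), and without SOX2+ replicate 2 it was 1.5 at a limma adjusted p of 0.0317, which passes. That library is the only SOX2+ one at 0, so leaving it out removes the overlap by itself and adds no support. The share of all genes called in that fit was not counted. The Unc5a difference was 0.21 with the upper 50% of each list and 0.87 to 1.5 without single libraries. Its limma adjusted p was 0.405 with no list length covariate. Unc5c, whose mutation disturbs granule cell migration in mice, had 4, 2, 6 and 5 peaks in SOX2+ libraries, against 2, 3, 1 and 4 in SOX2- libraries. Neo1 (chr9:58874679-59036614), the netrin and RGM receptor neogenin, had 2, 1, 2 and 2 against 1, 3, 2 and 3 peaks (-0.29 ± 0.08, limma adjusted p = 0.173), and the difference turned to 0.031 with the upper 50% of each list and 0.15 with a 10 kb window or gene ends only. Dcc, the attractive netrin receptor, had 1, 1, 3 and 2 against 1, 6, 1 and 1 peaks, a log2 difference of -0.15 ± 0.37. With the upper 50% of each list the direction turned, and Dcc was called higher at 1.27 ± 0.14 (limma adjusted p = 0.00505), the 1 guidance gene of 53 called there, against 0.555% of all genes. Only the Dcc start region and the region at chr18:72029126-72029463 had a peak that high in any list, so few peaks carried the call.

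Of the 11 tested Eph receptors, 3 had a difference above 0 and 8 below 0, against 43.2% and 44.3% of all genes, with no call. Ephb2, which binds B-type ephrins, had 2, 0, 2 and 7 peaks in SOX2+ libraries, against 0, 10, 2 and 5 in SOX2- libraries (-0.65 ± 0.19, limma adjusted p = 0.193). Epha7 had 1 peak in each SOX2+ library, against 1, 2, 2 and 3 in SOX2- libraries (-0.59 ± 0.16, limma adjusted p = 0.177). Both groups shared the peak at its start, and 1 further region 2.23 kb inside the gene made the difference in SOX2- lists, with 2 peaks inside it in SOX2- replicate 4. Ephb4, known from vessels, had 0 in all SOX2+ libraries and 1 peak each in SOX2- replicates 2 and 4 (-0.56 ± 0.18, limma adjusted p = 0.224). Ephb1, the EphB gene with most regions, had 2, 0, 5 and 3 against 1, 10, 1 and 10 peaks, and Epha4 had 2, 0, 2 and 4 against 0, 1, 0 and 5. The plexin and neuropilin receptors overlapped between groups. Plxna2, a receptor of Sema6a, had 5, 2, 5 and 9 peaks in SOX2+ libraries, against 1, 8, 2 and 9 in SOX2- libraries. Plxnb2, a plexin of granule cell precursors, had 1, 0, 2 and 3 against 0, 1, 1 and 1, and Plxna4 3, 0, 5 and 5 against 1, 10, 3 and 5. Nrp1 had 0, 0, 3 and 3 against 0, 5, 0 and 5 peaks, and Nrp2 had 4, 1, 3 and 5 against 0, 6, 0 and 7, the SOX2- counts splitting into the 2 longer and the 2 shorter lists. Robo2 had 3, 1, 7 and 5 against 3, 7, 5 and 5 peaks.

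**Figure D2:**
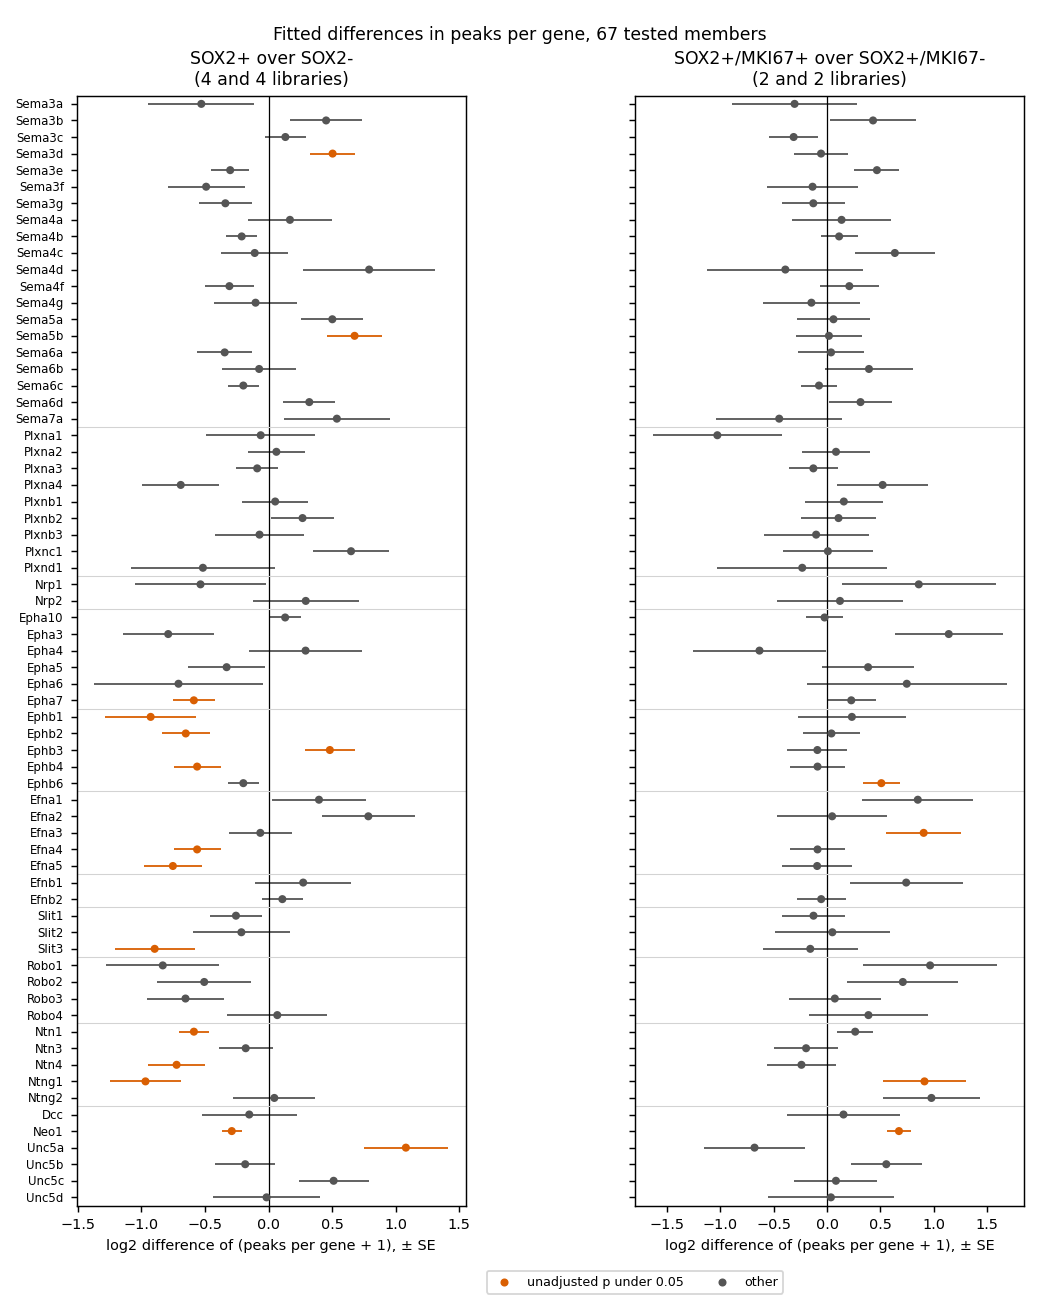
Log2 difference in (peaks per gene + 1) with its SE for each of the 67 tested guidance genes, SOX2+ over SOX2- on the left and SOX2+/MKI67+ over SOX2+/MKI67- on the right; orange marks an unadjusted p under 0.05. In the SOX2 comparison 11 orange points lie below 0 and 4 above it (1 and 2 with no list length covariate), in the MKI67 comparison 4 lie above 0, and none of them passes adjustment.

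Single regions were then compared between the groups. A region exclusive to SOX2+ had a peak in 3 or 4 of the SOX2+ libraries and in none of SOX2-. Guidance genes held 15 such regions at 14 genes (3.44% of their regions, against 4.1% of all regions), and 9 of the opposite class at 8 genes (2.06%, against 1.54%). Both shares are near those of all regions. The 15 were at Unc5a, Unc5c, Plxna2 (which held 2), Plxnc1, Nrp2, Ephb2, Efna2, Ntng2, Slit1, Slit3, Sema3d, Sema4b, Sema5a and Sema5b, and 12 of them lay inside the gene. Leaving out a library with the minimum lowered to 2 of its group's remaining 3 gave SOX2+ counts of 23, 32 and 24 without SOX2+ replicates 1, 2 and 3, and SOX2- counts of 50 and 47 without SOX2- replicates 1 and 3. With the minimum of 3 kept, a choice made after seeing the data, the SOX2+ count was 2, 15, 2 and 2 without SOX2+ replicates 1 to 4, and the SOX2- count was 8, 0, 0 and 1 without SOX2- replicates 1 to 4. Over all 8 libraries left out in turn with the lowered minimum, the SOX2+ count ranged from 15 to 32 and the SOX2- count from 8 to 50. None of these counts was set beside the share of all regions under the same rule.

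The SOX2+/MKI67 libraries took no part in that choice. Of the 15 SOX2+ exclusive regions, 9 (60%) were listed in all 4 of these libraries and 0 were missing from all of them, against 61.7% and 1.54% of the 1814 SOX2+ exclusive regions of all genes. Of the 9 SOX2- exclusive regions, 7 (77.8%) were listed in 0 of the 4, against 50.3% of 680, and none in all 4. The remaining 2, at Unc5b and Epha7, were listed in SOX2+/MKI67+ replicate 2.

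The strongest of these regions was in Unc5c, at chr3:141601021-141601732, 136 kb after the start site and inside the gene (chr3:141465564-141834924). All 8 libraries that hold SOX2+ cells listed it, the MKI67 libraries included, and none of the 4 SOX2- libraries did. Its median place was within the top 14.6% of a list by the authors' score, with a highest fold over background of 7.67, both the authors' own values. The Unc5c start region was listed in all 12 libraries, so the groups differed inside the gene and not at its start. The other region listed in 4 of 4 SOX2+ libraries was in Plxnc1, a semaphorin receptor of the plexin family, at chr10:94829433-94829997, 115 kb after the start site. Its median place was within the top 26.1%. At Unc5a the region around the start site (chr13:54948971-54949657) ranked lower, at a median of 74.4% down the list, where a peak is nearer to the calling threshold.

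**Figure D3:**
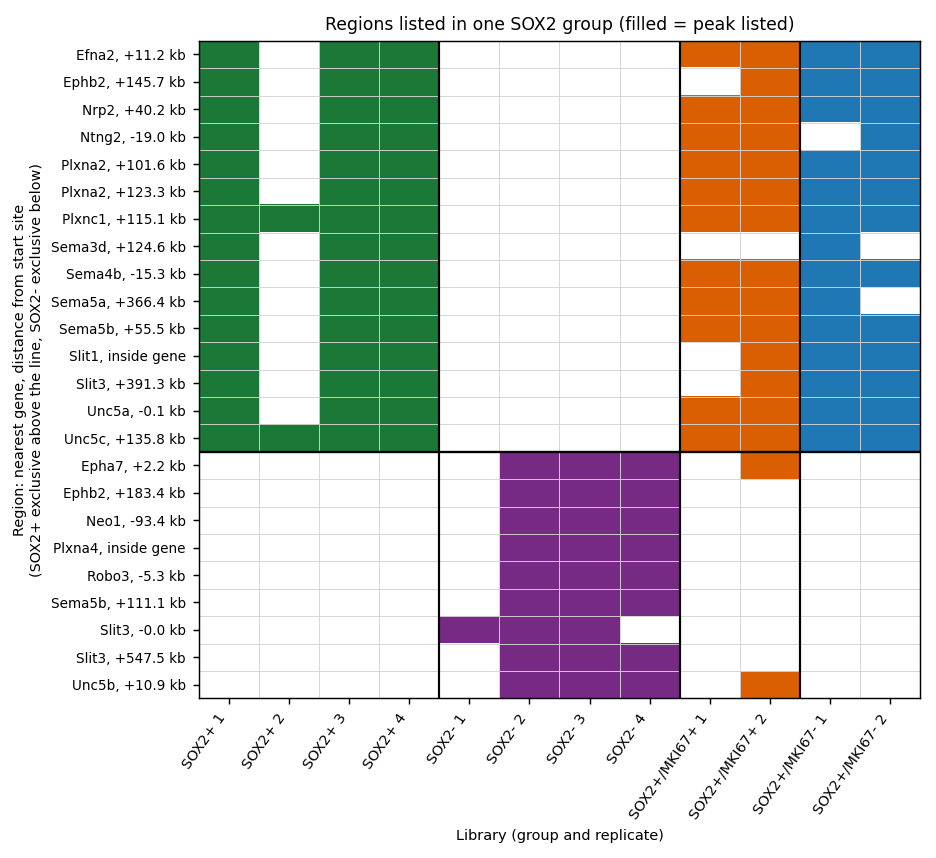
Presence of the 15 SOX2+ exclusive (above the line) and 9 SOX2- exclusive regions (below it) in each library, labelled by gene and distance of the region midpoint from the RefSeq start site (kb, positive in the direction of transcription; place in the gene where no start site was available). Filled cells mark a listed peak; SOX2+ replicate 2 lacks 13 of the 15, and 7 of the 9 lower rows are empty in all 4 MKI67 libraries.

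Slit3, Sema5b and Ephb2 held regions of both classes. At Slit3 the start region (chr11:35121059-35121809) was listed in SOX2- replicates 1, 2 and 3 and in no other library. It was weak, at a median of 95.8% down the list. A region 547 kb after the start (chr11:35668636-35669194) was listed in SOX2- replicates 2, 3 and 4 and nowhere else, at a median of 42.9%. Between them, 391 kb after the start (chr11:35512534-35513039), a region was listed in SOX2+ replicates 1, 3 and 4, in 1 of 2 SOX2+/MKI67+ and in both SOX2+/MKI67- libraries. A single gene thus held open regions of either group, which a count of peaks per gene adds together. At Sema5b a region 55.5 kb after the start (chr16:35596592-35597118) was listed in 3 SOX2+, both SOX2+/MKI67+ and both SOX2+/MKI67- libraries, and one 111 kb after it (chr16:35652176-35652836) in 3 SOX2- libraries and nowhere else. At Ephb2 the SOX2+ exclusive region lay 146 kb and the SOX2- exclusive region 183 kb after the start.

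**Figure D4:**
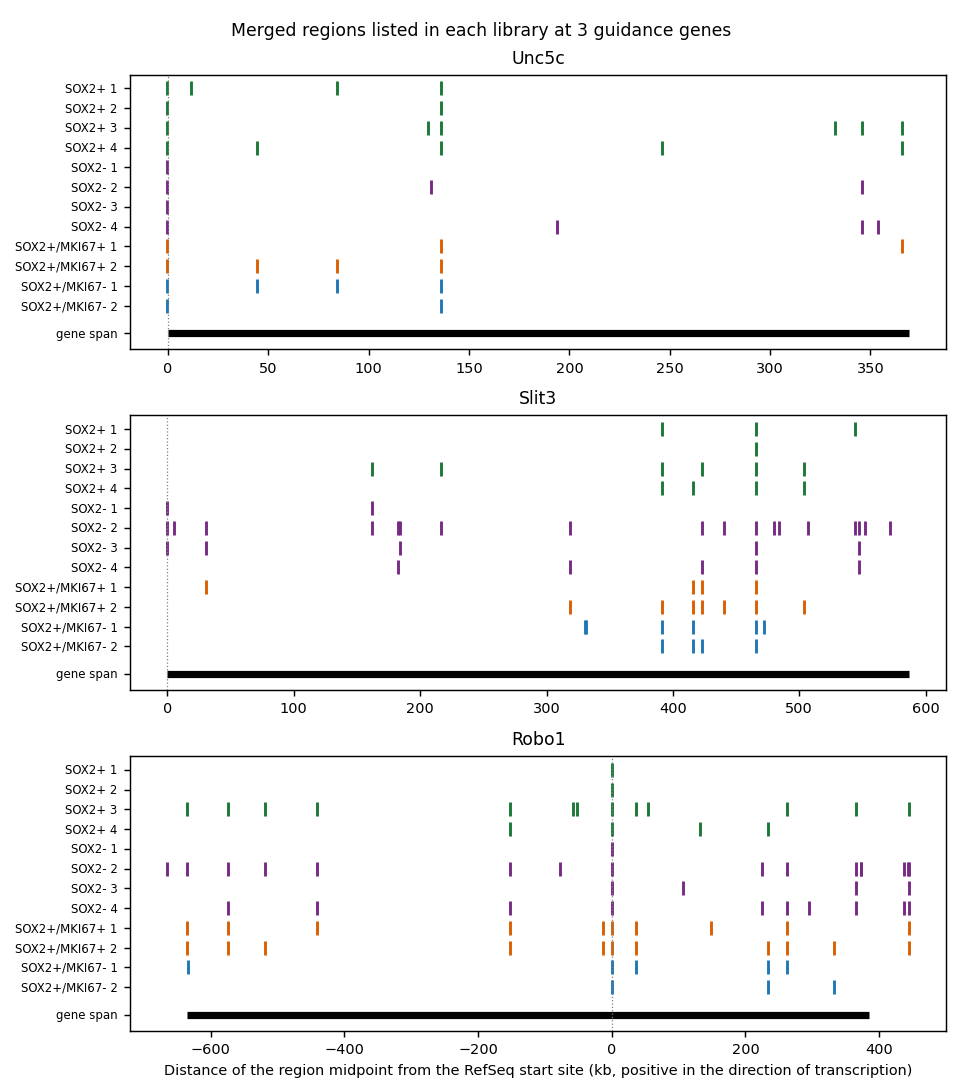
Merged regions listed in each of the 12 libraries (ticks, coloured by group) at Unc5c, Slit3 and Robo1, by distance of the region midpoint from the RefSeq start site in kb, with the gene span as a black bar. Unc5c shows the column 136 kb after the start in every library that holds SOX2+ cells and in no SOX2- library, Slit3 the start listed in SOX2- replicates 1 to 3, and Robo1 more ticks in SOX2+/MKI67+ than in SOX2+/MKI67- libraries.

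Between cycling SOX2+/MKI67+ and SOX2+/MKI67- cells no guidance gene passed the adjusted threshold either, in limma with 2 libraries a group, where 0.12% of all genes were called higher and 0.0916% lower. At an unadjusted p under 0.05, 4 guidance genes were higher (5.97%, against 3.05% of all genes) and 0 lower (0%, against 1.59%), and with no list length covariate 2 were higher (2.99%, against 1.86%) and 0 lower (0%, against 0.691%). The difference was above 0 for 42 of the 67 genes (62.7%, against 35.6% of all genes) and below 0 for 25 (37.3%, against 51.7%). The shares of all genes include genes at exactly 0 in their base, where no guidance gene lay. The median was 0.07 over the 67 and -0.02 over all genes. With lists of equal peak numbers Nrp2 was called lower (1 of 39, against 0.299% of all genes). With the MKI67 sort alone Ephb6 was called higher and Unc5a lower (1 of 59 each, against 2.06% and 0.512%). That fit had 4 libraries for 2 groups and list length. Both genes had equal counts within each group and differed by 1 peak between them. The split above and below 0 moved with the fit. It was 46 above and 6 below of 67 with no list length covariate, 29 and 25 of 59 with the MKI67 sort alone, and 16 and 27 of 49 at gene ends only. The rest lay at exactly 0, and these splits were not set beside those of all genes in the same fits. Neo1 had 2 and 3 peaks in SOX2+/MKI67+ libraries, against 1 and 1 in SOX2+/MKI67- libraries (log2 difference 0.68 ± 0.11, limma adjusted p = 0.159). The start region of Neo1 was listed in all 12 libraries, and its added peaks lay outside the gene, 19.9 to 97.8 kb from it. SOX2+/MKI67+ replicates 1 and 2 shared none of these added regions, and all ranked 81.4% or further down their lists. The Neo1 difference was 0 with lists of equal peak numbers, -0.10 with the upper 50% of each list and -0.00023 with a 10 kb window or gene ends only. Without SOX2+ replicate 4, which is in neither MKI67 group but shares the estimate of spread, the adjusted p for Neo1 was 0.0349. Ephb6, an Eph receptor without kinase activity, had 2 and 2 against 1 and 1 peaks (0.51 ± 0.17, limma adjusted p = 0.778). Efna3, an A-type ephrin, had 1 and 1 against 0 and 0 (0.91 ± 0.35, limma adjusted p = 0.987). These are differences of 1 peak.

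All 4 Robo genes had a difference above 0 in the MKI67 comparison, with and without the list length covariate. In the main fit 62.7% of guidance genes and 35.6% of all genes were above 0. The fit of that sort alone gave 2 Robo genes above and 1 below 0. None of the 4 had an unadjusted limma p under 0.05. Robo1 (chr16:72027518-73047491), the Slit receptor, had 11 and 11 peaks in SOX2+/MKI67+ libraries, against 5 and 3 in SOX2+/MKI67- libraries (log2 difference 0.97 ± 0.63, limma unadjusted p = 0.164). In the other sort it had 2, 1, 13 and 4 in SOX2+ and 1, 16, 5 and 10 in SOX2- libraries, so it spread widely within each group. Robo2 had 9 and 6 against 6 and 2 peaks, which touch at 6 (0.71 ± 0.52). Robo3 overlapped, with 2 and 3 against 3 and 1 peaks (0.07 ± 0.43). Robo4 had 0 and 1 against 0 and 0 peaks (0.39 ± 0.56), so it rested on 1 peak in 1 library. Epha3, an ephrin-A receptor, had 5 and 3 against 1 and 1.

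The netrin-Gs also had more peaks in SOX2+/MKI67+ libraries, with 6 and 3 against 1 and 2 in SOX2+/MKI67- libraries for Ntng1 and 4 and 6 against 1 and 2 for Ntng2. Nrp1, a co-receptor of secreted semaphorins, had 3 and 3 in SOX2+/MKI67+ libraries, against 2 and 0 in SOX2+/MKI67- libraries, and Efnb1 4 and 2 against 1 and 1. In these 4 genes, picked from those described after their values were seen, the closest libraries of the groups lay 1 or 2 peaks apart. Their limma unadjusted p was 0.0494 for Ntng1, 0.0652 for Ntng2, 0.270 for Nrp1 and 0.202 for Efnb1. Unc5a separated in the other direction, with 1 and 1 against 2 and 2 peaks. How many of all genes separate in either direction between 2 and 2 libraries was not counted, so this is a description only. Other genes overlapped between the MKI67 groups, among them Slit3 with 4 and 7 peaks in SOX2+/MKI67+, against 6 and 4 in SOX2+/MKI67- libraries, Sema5b with 3 and 8 against 4 and 4, Ephb2 with 3 and 6 against 4 and 2, Unc5c with 3 and 4 against 4 and 2, and Dcc with 2 and 2 against 2 and 1.

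Regions listed in 2 of 2 SOX2+/MKI67+ and 0 of 2 SOX2+/MKI67- libraries numbered 25 at 19 guidance genes (5.73% of their regions, against 4.03% of all regions), and those of the opposite class 2 (0.459%, against 0.972%). Robo1 held 5 of the 25, at -635, -574, -152, -13.7 and 445 kb from the RefSeq start, of which the first is at the upstream end of the gene span. The start window itself was listed in all 12 libraries. At Epha3 the start region (chr16:63863941-63864438) had a peak in both SOX2+/MKI67+ and neither SOX2+/MKI67- library, and in 3 of the SOX2+ and all 4 of the SOX2- libraries. The Efna1 start window had the same pattern in the MKI67 libraries, and was listed in 2 SOX2+ and 1 SOX2- libraries.

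Of these 25 regions, 22 (88%) were also listed in at least 1 SOX2- library, against 83.8% of the 1784 such regions of all genes. Granule neuron progenitor markers held 6.07 and 6.94 peaks per 10000 in SOX2+/MKI67+ libraries, against 2.84 and 4.16 in SOX2+/MKI67- libraries, and their part in the result was not tested. The MKI67 libraries and the SOX2- libraries came from different sorts, so sort and cell group cannot be told apart where these are set side by side.

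Other genes of guidance signalling were counted in 5 lists, of effectors such as Trio, Dock1 and Srgap1, of partners such as Rgma and Cntn1, and of the growth cone machinery. Of 69 genes found among 70 symbols, 65 were tested and 0 were called in either comparison. At an unadjusted p under 0.05, 7 were higher (10.8%, against 6.85% of all genes) and 4 lower (6.15%, against 6.44%) in SOX2+ than in SOX2- libraries. In SOX2+/MKI67+ libraries 1 was higher (1.54%, against 3.05%) and 3 lower (4.62%, against 1.59%) than in SOX2+/MKI67- libraries. Their median log2 difference was 0 in both comparisons.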

How the data were processed

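The members of the set and every gene list were chosen with earlier results of these data known. Reads of 50 bp, sequenced from a single end per the labels' protocols, were mapped with Bowtie2 on mm10, and MACS2 made the peak lists, per the submitters' processing notes. Their versions, settings and any shift for the transposase are not given in the sources used here. For every peak of a single library, the deposited lists hold the authors' score, fold ratio over background, significance as -log10 p-value and -log10 q-value, and summit offset. The deposited score was used only to rank peaks within a list.

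Peak midpoints were matched to 21631 protein-coding genes of GRCm38.p6 on 19 autosomes and X, and 94.0% of peaks lay within the 100 kb window. Where genes overlap, the shorter took the peak. Log2(peaks per gene + 1) was tested with limma 3.58.1 (lmFit, eBayes with trend, R 4.3.3) over 12 libraries, 4 groups and log10 list length, for the 14185 genes that 2 or more libraries listed, with Benjamini-Hochberg adjustment over all of them. The differences depend on the pseudocount of 1. The script was tested on simulated data, with independent counts drawn in proportion to list length and large added increases. Real counts need not follow this, so that run checks the code and not the calls in these lists. Because peaks were called per library, a missing peak can lie just under that list's threshold. Promoter sequences are RefSeq's, build GRCm38.p6.

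Values per library were given for the 12 genes with the smallest p in the SOX2 comparison, the 3 in the MKI67 comparison, genes called, genes with 2 or more exclusive regions of one SOX2 group, the gene with most regions in each family, and 12 genes known from cerebellar development or guidance. Other genes named hold an exclusive region or a start window listed in all libraries. Alternatives were another pseudocount, filter, peak cutoff, gene window, covariate, set of libraries, replicate block and merging rule, and leaving out each library.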

Additional observations from a re-analysis of the deposited data

Results flagged for a closer look

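In 8 of 56 sets of 4 libraries at the genes named by the tests or by cerebellar role, 1 library differed from the other 3 by Dixon's criterion at the 95% level. In all 8 the other 3 values were tied, so any different whole number meets the criterion, and the rate of about 1 set in 20 that chance gives for continuous values does not apply. All but Dcc differ by 1 peak. Each lies in the shortest or the longest list of its group. In the short lists, Ntn1 and Neo1 each had 1 peak in SOX2+ replicate 2, and Plxnb2 and Slit2 each had 0 in SOX2- replicate 1. In the long lists, Efna3 had 1 peak and Ephb6 had 2 in SOX2+ replicate 4, and Dcc had 6 and Efna3 had 1 in SOX2- replicate 2. The part of list length in these values was not tested.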

How the results depend on the processing

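No guidance gene was called in either comparison except under a few settings. With lists cut to equal peak numbers 3 of 39 tested were called between SOX2+ and SOX2-, with Ephb3 and Sema5b higher and Ntn1 lower, against 1.62% higher and 0.898% lower of 9025 genes. The MKI67 comparison then called 1 of 39, with Nrp2 lower, against 0.299% lower of all genes. With the upper 50% of each list the SOX2 comparison called 1 of 53, against 0.555% higher of 10993 genes: Dcc was higher at 1.27, against -0.15 in the full lists, so its direction turned. Few Dcc peaks ranked in the upper 50% of a list. With only the MKI67 sort in the fit 2 of 59 were called, with Ephb6 higher and Unc5a lower, against 2.06% higher and 0.512% lower of 12504 genes. Both calls rested on a difference of 1 peak with equal counts within each group. Without single libraries 0 to 1 guidance genes were called in the SOX2 comparison, and without SOX2+ replicate 4 the MKI67 comparison called Neo1. These calls were not set beside the share of all genes called in the same fits. The median SOX2 difference was 0 with gene ends only, with equal peak numbers and without the list length covariate, -0.065 with the upper 50%, and -0.23 to -0.10 without single libraries. The median MKI67 difference was -0.037 with gene ends only, 0.29 with no list length covariate, and 0.03 to 0.14 without single libraries. The Neo1 difference turned to 0.031 (upper 50%) and 0.15 (a 10 kb window, and gene ends only) for SOX2, and to -0.10 and -0.00023 under the same settings for MKI67. SOX2+ and SOX2- exclusive regions numbered 5 and 4 for lists of equal peak numbers, 5 and 3 for the upper 50%, 2 and 0 when 4 of 4 libraries were required, 15 to 32 and 8 to 50 without single libraries with a minimum of 2 of the 3 remaining, and 2 to 15 and 0 to 8 with the minimum of 3 kept. These region counts were not set beside the share of all regions under the same settings. At gene ends only, Ntn1, Ntn4, Sema5b, Epha7 and Ephb2 were at -0.06, -0.17, 0.04, 0 and -0.31 in the SOX2 comparison. The causes were not tested.

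A replicate block gave 0 guidance genes called in both comparisons, with medians of -0.16 and 0.07, and 56 in place of 122 genes called over all genes in the SOX2 comparison. Deviations of same-numbered SOX2+ and SOX2- libraries correlated at -0.36 to 0.19, and at -0.18 to 0.41 when adjusted for list length, so pairing was not shown, and the labels do not say what the numbers mark. Lists without read counts limit what can be seen, as a weak peak in a short list is not listed.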
